A study of Mus musculus with 8 samples.

Results

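The genes described here are the muscarinic acetylcholine receptors Chrm1 to Chrm5 and 4 genes of acetylcholine handling, namely Chat, Slc5a7, Slc18a3 and Ache. They were chosen by name, as a receptor family with the genes that make, load and break down its ligand. Earlier results of these data were known at that choice. The set makes up 9 of the 32285 genes counted in nuclei of the mouse striatum. Choline acetyltransferase (Chat) makes acetylcholine from choline and acetyl-CoA, the transporter encoded by Slc5a7 takes choline up into the terminal, and the vesicular transporter encoded by Slc18a3 loads acetylcholine into vesicles. Acetylcholinesterase (Ache) ends the signal. Chrm1, Chrm3 and Chrm5 encode receptors that couple to Gq and phospholipase C, while the products of Chrm2 and Chrm4 couple to Gi and lower cAMP. In the striatum, acetylcholine comes mainly from sparse cholinergic interneurons that act on the projection neurons of the direct pathway, which carry the dopamine receptor Drd1, and of the indirect pathway, which carry Drd2.

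The study profiled frozen striatum of 32 mice, 12 weeks old, with an assay that reads nuclear RNA and open chromatin from the same nucleus. The mice came from 8 inbred strains, 4 mice each: 129S1/SvImJ, A/J, C57BL/6, NOD/ShiLtJ and NZO/HlLtJ among the laboratory strains, and CAST/EiJ, PWK/PhJ and WSB/EiJ, which derive from wild mice. Nuclei of 8 mice, 1 of every strain, were pooled and loaded together in each of 4 batches, so a mouse is known by its batch and strain. Each batch held as many male as female mice, but the sex of a single mouse was not used here, and its part in a strain's values was not tested. After the authors' filters, 55672 nuclei in 18 annotated clusters remained, 944 to 4416 per mouse, with a median of 4842, 4931, 3232 and 4593 unique molecular identifiers (UMIs, counted RNA molecules) per nucleus in batches 1 to 4. Of 54141 distinct barcodes among these nuclei, 1517 occurred in more than 1 batch. Projection neuron markers were present in the labelled clusters. Ppp1r1b reached 160 CPM (counts per 1000000 counts of the cluster) in the Drd1+ cluster and 157 CPM in the Drd2+ cluster. Bcl11b was at 404 and 411 CPM there, and Rgs9 at 822 and 852 CPM. Bcl11b and Rgs9 were highest in the Drd2+ cluster, but Ppp1r1b in the small cluster Unknown_2, at 183 CPM. The Slc17a7+ clusters carried the excitatory marker Slc17a7. Clusters had been made from the RNA of these same nuclei, so levels are compared between clusters as a description, with the spread over the 4 batches and no test.

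The 9 genes lie at 8 separate loci in GRCm38.p6, the build the files name as mm10. Chat spans chr14:32408203-32465909 on the minus strand, and Slc18a3, at chr14:32462437-32464850 on the same strand, lies wholly inside it, the arrangement known as the cholinergic gene locus. Slc5a7 is at chr17:54273590-54299038, Ache at chr5:137288247-137294466, Chrm1 at chr19:8664005-8683606, Chrm2 at chr6:36387991-36528638, Chrm4 at chr2:91922189-91929835 and Chrm5 at chr2:112478733-112536361. Chrm3, at chr13:9875486-10361062, is by far the longest, with 485577 bases against 7647 for Chrm4. Of the 291715 accessible regions that the authors listed, 75 lay in Chrm3, 22 in Chrm2, 8 in Chat, 4 in Chrm4 and 1 each in Slc5a7 and Slc18a3. Nuclear RNA is rich in unspliced transcripts, so a long gene collects more counts than a short one, and no level is compared between genes here.

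Promoter windows, 250 bases before to 50 after the annotated start, are shown 5′ to 3′ for the 4 acetylcholine handling genes, because all 4 were highest in one small cluster while their promoters differ in composition, and for Chrm3, a receptor whose level differed between strains in both kinds of projection neuron. They come from RefSeq on GRCm38.p6. Capitals mark the GC box GGGCGG on either strand (CCGCCC on the other).
Chat (chr14:32465860-32466159, minus strand): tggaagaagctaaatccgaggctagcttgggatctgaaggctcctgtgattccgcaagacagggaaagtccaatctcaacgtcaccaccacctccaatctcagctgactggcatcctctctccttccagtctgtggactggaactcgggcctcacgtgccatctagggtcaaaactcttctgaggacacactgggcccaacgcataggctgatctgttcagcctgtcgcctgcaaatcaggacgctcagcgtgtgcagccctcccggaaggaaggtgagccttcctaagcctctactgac
Slc18a3 (chr14:32464801-32465100, minus strand): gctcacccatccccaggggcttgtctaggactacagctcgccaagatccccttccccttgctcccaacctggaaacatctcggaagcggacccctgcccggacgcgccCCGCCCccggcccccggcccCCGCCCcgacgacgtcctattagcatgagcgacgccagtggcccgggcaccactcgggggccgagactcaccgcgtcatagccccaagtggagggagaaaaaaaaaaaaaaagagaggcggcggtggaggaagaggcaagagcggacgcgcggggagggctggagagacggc
Slc5a7 (chr17:54298985-54299284, minus strand): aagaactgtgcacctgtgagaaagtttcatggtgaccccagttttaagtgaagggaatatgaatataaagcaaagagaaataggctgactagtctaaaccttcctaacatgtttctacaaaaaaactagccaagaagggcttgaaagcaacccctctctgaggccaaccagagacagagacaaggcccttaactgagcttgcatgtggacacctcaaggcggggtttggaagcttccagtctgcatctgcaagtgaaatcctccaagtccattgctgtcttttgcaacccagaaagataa
Ache (chr5:137288004-137288303, plus strand): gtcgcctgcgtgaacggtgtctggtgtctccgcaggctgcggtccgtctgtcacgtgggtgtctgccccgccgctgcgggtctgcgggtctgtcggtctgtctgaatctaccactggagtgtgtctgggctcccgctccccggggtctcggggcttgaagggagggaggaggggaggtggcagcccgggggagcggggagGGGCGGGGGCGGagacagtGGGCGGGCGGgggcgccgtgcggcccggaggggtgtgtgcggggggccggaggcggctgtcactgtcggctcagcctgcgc
Chrm3 (chr13:10360754-10361053, minus strand): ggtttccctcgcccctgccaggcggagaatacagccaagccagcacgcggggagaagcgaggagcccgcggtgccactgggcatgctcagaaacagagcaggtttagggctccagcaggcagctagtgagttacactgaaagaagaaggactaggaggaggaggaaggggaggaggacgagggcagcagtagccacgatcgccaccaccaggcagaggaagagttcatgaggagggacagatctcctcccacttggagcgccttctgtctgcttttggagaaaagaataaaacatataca

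The GC box occurs 2 times in the Slc18a3 window and 4 times in that of Ache, overlapping matches included, and not in those of Chat, Slc5a7 and Chrm3. It occurs in 42.5% of all 24824 promoter windows searched. The windows of Ache and Slc18a3 are 74% and 67% G or C with 30 and 27 CpG sites, that of Chat 55.7% with 10, and that of Slc5a7 44.7% with 1, against medians of 55.3% and 10 over all windows. The TATA motif TATAAA is present once in the Slc5a7 window, at position -187 from the start, and in 12.6% of all windows. The cAMP response element TGACGTCA is in 2.14% of windows and in none of these. An accessible region overlapped the windows of Slc18a3, Slc5a7, Ache and Chrm3. No listed region overlapped those of Chat, Chrm2, Chrm4 and Chrm5, while 59.0% of all windows were overlapped by one. The Chrm5 window, chr2:112480768-112481067 on the minus strand, lies inside the gene's span and far from its 5′ end at 112536361. The start of that longer span was not searched.

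**Figure D1:**
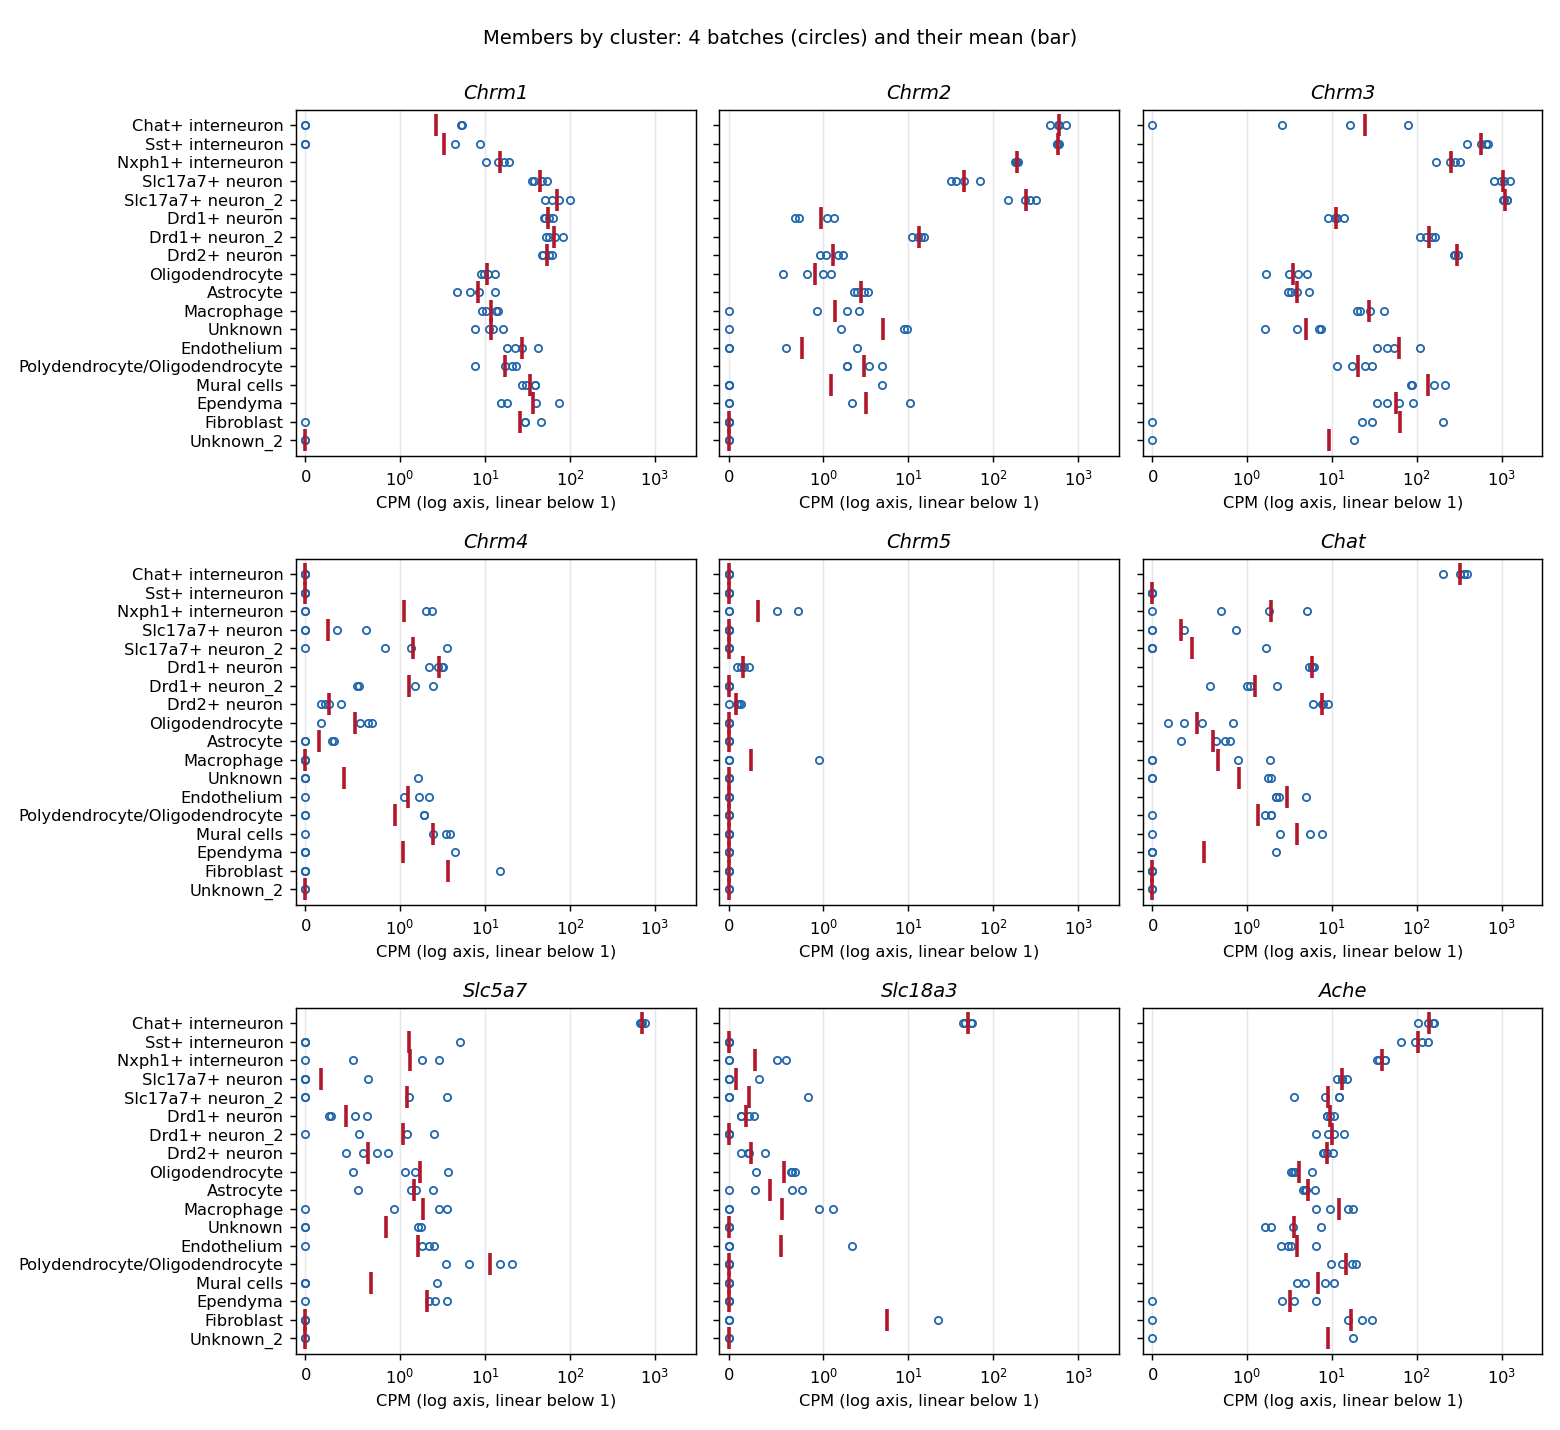
CPM of each of the 9 genes (horizontal axis, linear below 1 and logarithmic above) in each annotated cluster (vertical axis). Circles are the 4 batches and bars their mean. Chat, Slc5a7 and Slc18a3 stand at 319, 702 and 50.1 CPM in Chat+ interneurons and at no more than 11.5 CPM on average elsewhere, whereas Chrm3 is above 250 CPM in 5 neuron clusters.

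The genes of acetylcholine synthesis and vesicle loading were concentrated in the Chat+ interneurons, a cluster of 120 nuclei, 0.216% of all, from 29 mice. Slc5a7 measured 702 ± 39.1 CPM there (SD, n = 4 batches; 668 to 758), Chat 319 ± 82.9 CPM (202 to 393) and Slc18a3 50.1 ± 6.01 CPM (44.2 to 56.2). The next cluster for Slc5a7 was that of polydendrocytes and oligodendrocytes, at 11.5 ± 8.00 CPM from 24 counts. For Chat it was the Drd2+ neurons, at 7.64 ± 1.24 CPM, followed by the Drd1+ neurons at 5.80 ± 0.268 CPM. The batches of the Chat+ cluster did not overlap those of any other cluster for these 3 genes. Of all counts of a gene in the series, the Chat+ nuclei held 75.4% for Slc5a7, 42.2% for Slc18a3 and 20.8% for Chat.

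Slc5a7 and Chat were detected in most single Chat+ nuclei, and Slc18a3 in a minority. These genes span 25449, 57707 and 2414 bases, so their shares are not read as an order of levels. Slc5a7 had at least 1 UMI in 95.8% of the 120 nuclei (exact 95% binomial interval 90.5 to 98.6), Chat in 84.2% (76.4 to 90.2) and Slc18a3 in 28.3% (20.5 to 37.3). In oligodendrocytes, which should lack these genes, the shares were 0.290%, 0.0746% and 0.108%, at a median of 1640 UMIs per nucleus against 8370.5 in the Chat+ nuclei. Thinned to 1000 UMIs per nucleus, the shares in Chat+ nuclei were 51.3% for Slc5a7, 29.4% for Chat and 2.52% for Slc18a3, and in oligodendrocytes 0.226%, 0.0361% and 0.0451%. The intervals cover counting error only, since nuclei of a mouse are not independent replicates. Of the 3 genes, 30 Chat+ nuclei had all, 73 had 2 of them, 14 had 1 and 3 had none. Outside the cluster no nucleus had all 3, 14 had 2 and 1314 had 1. Among those 14 nuclei, 6 were Drd1+ and 3 Drd2+ neurons. Other genes of cholinergic interneurons were at their highest in the same cluster: the transcription factor gene Lhx8 at 223 CPM, the transporter gene Slc10a4 at 208 CPM and the peptidase gene Ecel1 at 234 CPM. Gbx2, a developmental marker, gave 2 counts.

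**Figure D2:**
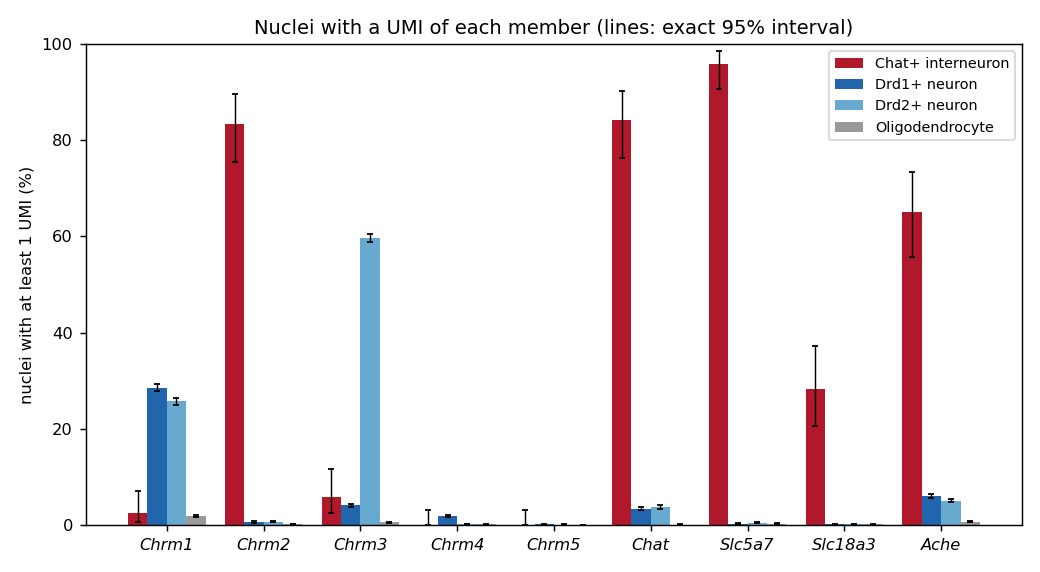
Share of nuclei with at least 1 UMI of each gene (percent, vertical axis) in Chat+ interneurons, Drd1+ and Drd2+ neurons and oligodendrocytes; lines are exact 95% binomial intervals. In Chat+ nuclei Slc5a7, Chat and Chrm2 reach 95.8%, 84.2% and 83.3%, and Chrm4 and Chrm5 have no UMI.

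Ache, which is expressed by many neurons that receive acetylcholine as well as by those that release it, was less restricted. It measured 138 ± 25.1 CPM in Chat+ interneurons (104 to 157) and 103 ± 30.1 CPM in Sst+ interneurons, and the batches of these clusters overlapped. Nxph1+ interneurons followed at 38.6 ± 4.07 CPM, and the means of the remaining clusters did not exceed 17.0 CPM. In Chat+ nuclei 65% had an Ache UMI (55.8 to 73.5), against 0.704% of oligodendrocytes, and after thinning to 1000 UMIs 13.4% against 0.451%.

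Chrm2, the Gi-coupled receptor known as the autoreceptor of cholinergic terminals, was highest in interneurons. Its level was 589 ± 105 CPM in Chat+ interneurons (467 to 723) and 571 ± 13.1 CPM in Sst+ interneurons (561 to 590), with overlapping batches. The Slc17a7+ neuron_2 cluster, of excitatory neurons, had 244 ± 71.7 CPM and the Nxph1+ interneurons 187 ± 5.11 CPM, again overlapping each other but not the first pair. Below them came the other Slc17a7+ cluster at 45.5 ± 16.7 CPM and Drd1+ neuron_2, a smaller Drd1-bearing cluster, at 13.3 ± 1.79 CPM, each apart from its neighbours in the order. Chrm2 in projection neurons, Drd1+ and then Drd2+, stood at 0.969 and 1.30 CPM, about the level of oligodendrocytes (0.907 CPM). Chrm2 overlaps the start of the long noncoding RNA 9330158H04Rik on the opposite strand, and whether the counting used strand is not given in the sources used here.

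Chrm3, a Gq-coupled receptor, was counted in most neuron clusters, and highest in the excitatory ones. The excitatory clusters Slc17a7+ neuron_2 and Slc17a7+ neuron held 1098 ± 56.99 and 1023 ± 183 CPM, with overlapping batches. Sst+ interneurons held 574 ± 132 CPM, apart from both neighbours in the order. Drd2+ neurons (293 ± 16.4 CPM) and Nxph1+ interneurons (252 ± 64.3 CPM) overlapped, as did Drd1+ neuron_2 (138 ± 23.9 CPM) and the cluster labelled mural cells (136 ± 61.3 CPM). That last cluster also held the indirect pathway transcripts Penk at 503 CPM and Adora2a at 82.0 CPM; their part in its Chrm3 level was not tested. Drd1+ neurons stood far down the order, at 11.3 ± 2.01 CPM. In Chat+ nuclei Chrm3 gave 13 counts in 7 of 120 nuclei.

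Chrm1, the main Gq-coupled receptor of projection neurons, had overlapping levels in its 5 highest clusters. It was 71.1 ± 21.1 CPM in Slc17a7+ neuron_2, 64.4 ± 13.8 CPM in Drd1+ neuron_2, 55.2 ± 6.22 CPM in Drd1+ neurons, 53.3 ± 7.11 CPM in Drd2+ neurons and 43.9 ± 8.49 CPM in Slc17a7+ neurons. Interneurons were low: Nxph1+ at 15.1 ± 3.89 CPM, Sst+ at 3.27 ± 4.16 CPM, and Chat+ with 3 counts in all.

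Chrm4, the Gi-coupled receptor that is known as the counterpart of Drd1 in direct pathway neurons, gave few counts. Of 373 counts in the series, 304 (81.5%) were in Drd1+ neurons, where the level was 2.84 ± 0.467 CPM, and 20 were in Drd2+ neurons. Chrm5 gave 25 counts in all, 15 of them in Drd1+ and 7 in Drd2+ neurons. Neither gene had a count in the 120 Chat+ nuclei, for which the exact 95% interval allows a share of up to 3.03% of nuclei with a UMI. At this depth no order of clusters can be read for Chrm5.

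Within mice, Chrm3 separated the projection neurons of the direct and indirect pathways, and Chrm4 differed between them with ranges that overlapped. Chrm3 was 10.5 ± 7.22 CPM in Drd1+ neurons (0.893 to 26.3, n = 32 mice) and 288 ± 65.7 CPM in Drd2+ neurons (155 to 407), and was higher in Drd2+ neurons in all 32 mice. The lowest Drd2+ value was above the highest Drd1+ value. Chrm4 was 2.72 ± 1.27 CPM in the direct (0.596 to 4.97) and 0.232 ± 0.356 CPM in the indirect pathway neurons (0 to 1.12, from 20 counts). It was higher in Drd1+ neurons in 31 of 32 mice. Chrm1 was higher in Drd1+ neurons in 21 of 32 mice (means of 55.4 and 53.2 CPM), Ache in 22 (9.62 and 8.83 CPM) and Chat in 10 (5.71 and 7.67 CPM), with groups that overlapped over most of their range.

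**Figure D3:**
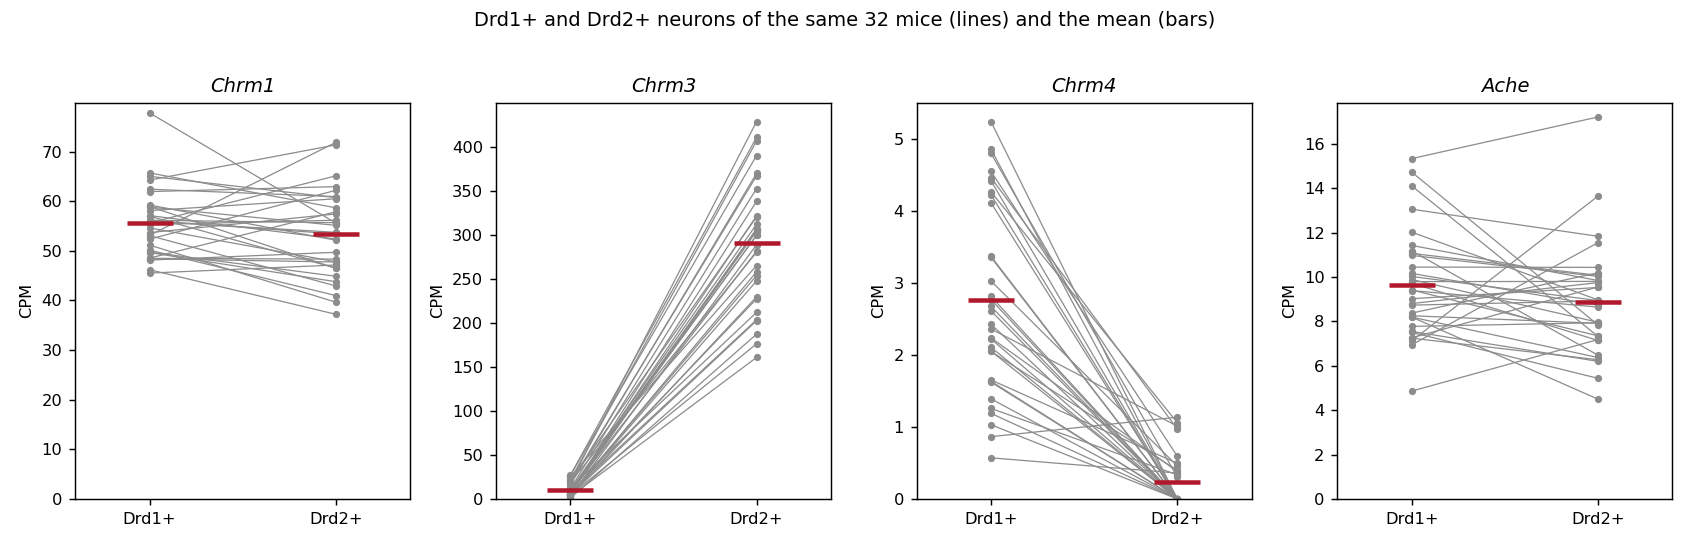
CPM, scaled by edgeR's TMM factors, of Chrm1, Chrm3, Chrm4 and Ache in Drd1+ and Drd2+ neurons of the same mouse. Lines join the 2 values of each of 32 mice, and bars are means. Chrm3 rises from 10.6 to 291 CPM without overlap, Chrm4 falls from 2.75 to 0.234 CPM, and the lines of Chrm1 and Ache cross.

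The Chrm3 level of Drd1+ neurons was 3.89% of that of Drd2+ neurons. Transcripts that define the indirect pathway were at like shares there: Drd2 in Drd1+ neurons was at 2.73% of its level in Drd2+ neurons, Adora2a at 6.29%, Gpr6 at 8.51% and Penk at 9.19%. In the other direction Chrm4 in Drd2+ neurons was at 8.41% of its Drd1+ level, against 4.52% for Isl1, 4.66% for Drd1, 6.72% for Pdyn and 16.2% for Tac1. The part that free RNA or mixed nuclei have in these low levels was not tested.

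Differences between strains were tested on libraries summed per mouse and cluster, in the 9 clusters with at least 10 nuclei in at least 3 mice of every strain. The test was edgeR's quasi-likelihood F test of strain, with batch as a term, adjusted by Benjamini-Hochberg over all genes of a cluster, with calls made below an adjusted p of 0.05. Of 81 pairs of gene and cluster, 14 passed the filter on low counts and 6 were called. Slc5a7, Slc18a3 and Chrm5 passed it nowhere, and Chrm2 only in Nxph1+ interneurons. In Drd1+ neurons 4 of 5 genes tested were called, where 61.7% of all genes were. In Drd2+ neurons 2 of 4 were called, beside 55.9% of all genes, so neither share is far above the background. In Drd1+ neuron_2 (17.3% of genes called), Nxph1+ interneurons (1.53%) and endothelium (3.23%) none of the genes tested was called: adjusted p was 0.342 for Chrm1 and 0.293 for Chrm3 in Drd1+ neuron_2, 0.989 for Chrm2 and 0.890 for Chrm3 in Nxph1+ interneurons and 0.747 for Chrm3 in endothelium (edgeR). No gene passed the filter in oligodendrocytes, astrocytes, macrophages or the polydendrocyte cluster (34.8%, 21.5%, 24.8% and 1.24% of genes called). From here on CPM of the 9 genes and of the listed pathway genes are scaled by edgeR's TMM factors in the tested clusters. Levels of cell type markers and of overlapping genes, and all values of the Chat+ interneurons, are CPM over unscaled totals.

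Chat had the largest strain F of the genes tested in both kinds of projection neuron. In Drd1+ neurons of batches 1 to 4 it was 12.9, 11.8, 7.58 and 9.84 CPM in PWK/PhJ, 8.39, 7.83, 7.38 and 6.92 CPM in C57BL/6, and 6.77, 7.36, 9.21 and 4.19 CPM in A/J. It was 1.32, 0.647, 0.540 and 1.23 CPM in CAST/EiJ and 1.41, 3.77, 2.24 and 2.43 CPM in WSB/EiJ. The CAST/EiJ mice were the 4 lowest of 32, and 3 of 4 PWK/PhJ mice were above every mouse of the other strains. The strain term gave F = 14.6 (edgeR, adjusted p = 1.15e-08). Against the mean of the other 7 strains Chat was lower in CAST/EiJ by a log2 difference of -2.55 ± 0.37 (SE; edgeR, adjusted p = 3.91e-07) and in WSB/EiJ by -1.11 ± 0.30 (adjusted p = 0.00664). It was higher in PWK/PhJ by 1.33 ± 0.20 (adjusted p = 9.2e-07), in C57BL/6 by 0.81 ± 0.22 (adjusted p = 0.00887) and in A/J by 0.60 ± 0.20 (adjusted p = 0.0346). In these directions 15.9% of all genes were called lower in CAST/EiJ and 7.3% in WSB/EiJ, and 17%, 8.01% and 10.6% higher in PWK/PhJ, C57BL/6 and A/J. The mean of the other 7 is taken on the log2 scale, so the low values of CAST/EiJ and WSB/EiJ lower it for the other strains. In CPM, the A/J mean was 6.88 against 5.55 over the mice of the other strains. For C57BL/6 it was 7.63 against 5.44. The CAST/EiJ and PWK/PhJ calls held when any single batch was left out. Those of WSB/EiJ and C57BL/6 were lost without batch 1 (adjusted p = 0.119 and 0.0652), and that of A/J without batch 1, 2 or 3 (0.0767, 0.172 and 0.207).

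In Drd2+ neurons the mice of PWK/PhJ had 14.1, 15.9, 18.1 and 18.1 CPM of Chat, all above every other mouse. NOD/ShiLtJ mice had 11.8, 9.77, 13.1 and 10.0 CPM and A/J mice 8.12, 10.4, 7.57 and 10.9 CPM. At the low end stood CAST/EiJ, with 3.73, 2.98, 3.97 and 2.16 CPM, and 129S1/SvImJ, with 1.20, 2.14, 4.84 and 7.79 CPM, where the 4 mice were spread widely. The strain term gave F = 16.7 (edgeR, adjusted p = 1.22e-09). Chat was higher by a log2 difference of 1.50 ± 0.18 in PWK/PhJ (edgeR, adjusted p = 2.56e-09), 0.82 ± 0.19 in NOD/ShiLtJ (adjusted p = 0.00216) and 0.59 ± 0.18 in A/J (adjusted p = 0.0183), where 15.2%, 7.58% and 9.09% of genes were called higher. It was lower by -1.16 ± 0.28 in CAST/EiJ (edgeR, adjusted p = 0.0011) and -0.95 ± 0.25 in 129S1/SvImJ (adjusted p = 0.00849), where 13.3% and 4.36% of genes were called lower. In CPM, the A/J mean was 9.24 against 7.43 over the mice of the other strains. The calls of 129S1/SvImJ and A/J were lost without batch 1 (edgeR, adjusted p = 0.234 and 0.0528) and without batch 2 (0.130 and 0.207).

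**Figure D4:**
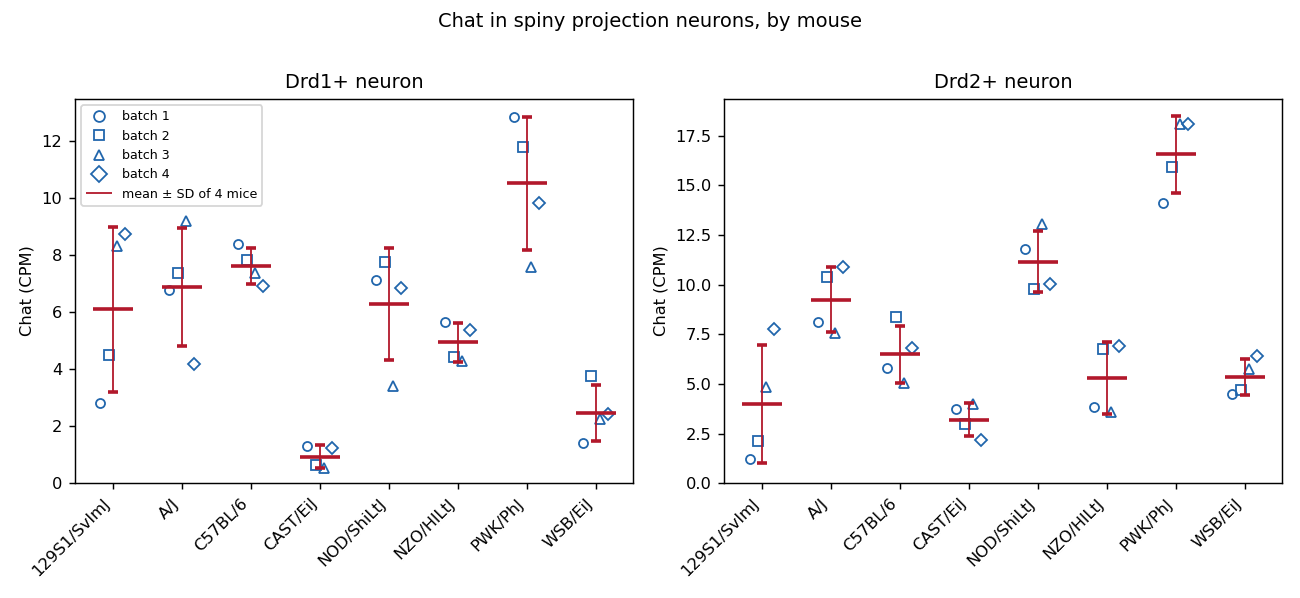
TMM-scaled CPM of Chat in Drd1+ and Drd2+ neurons by strain; markers are the 4 mice, 1 per batch, and bars the mean with its SD. PWK/PhJ is highest in both (10.5 and 16.6 CPM) and CAST/EiJ lowest in both (0.933 and 3.21 CPM).

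Strain differences in Chat were themselves different in Drd1+ and Drd2+ neurons. The interaction of strain and cluster, fitted over both with the mouse as a block, called 4.58% of all genes and 1 of the 5 genes tested here, Chat, with F = 4.88 (edgeR, adjusted p = 0.00249). On the log2 scale, Drd2+ minus Drd1+ was -0.63 ± 0.35 in 129S1/SvImJ (SD, n = 4 mice), negative in all 4. It was 1.28 ± 0.56 in CAST/EiJ, positive in all 4, where the Drd1+ libraries held 5, 2, 1 and 3 Chat counts. The means of the other strains ran from -0.21 ± 0.30 in C57BL/6 to 1.00 ± 0.48 in WSB/EiJ. Chrm3 had an adjusted p of 0.0866, Ache of 0.448, Chrm4 of 0.772 and Chrm1 of 0.809 for the interaction (edgeR). This call for Chat was lost without the mouse as a block (adjusted p = 0.160), without batch 1 (0.109) and without batch 3 (0.0807).

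Counts of Chat in projection neurons can be set beside those of the transporter genes Slc5a7 and Slc18a3, each relative to its own counts in the Chat+ cluster, since the genes differ in length. Drd1+ neurons held 602 counts of Chat, 44 of Slc5a7 and 18 of Slc18a3, and Drd2+ neurons 614, 56 and 19. For every 100 counts in the Chat+ cluster, Drd1+ neurons held 178 of Chat but 6.49 of Slc5a7, 39.1 of Slc18a3, 17.2 of Lhx8, 16.4 of Slc10a4 and 25.2 of Ecel1. Listed genes of cholinergic interneurons that were about as plentiful as Chat by this ratio, or more so, were Slc17a8 (175), a vesicular glutamate transporter gene, and Isl1 (1782), which direct pathway neurons also express. Of the 815 counts of Slc17a8 in Drd1+ neurons, 423 were in CAST/EiJ and 366 in PWK/PhJ. Nuclei with a Chat UMI made up 0.618% of Drd1+ neurons in CAST/EiJ and 5.90% in PWK/PhJ, and 1.47% and 6.94% of Drd2+ neurons. Thinned to 1000 UMIs per nucleus, the shares were at most 1.17% and 1.35% in any strain, and no order of strains was read from them. The submitters' processing notes name 1 mouse build for all strains, and the part of strain sequence differences in these values was not tested.

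Strain differences in the Chat+ interneurons themselves were not tested. Each strain had 9 to 30 nuclei there, and the rule of 2 mice with at least 5 nuclei in every strain was not met, since only 8 mice had that many. Summed over the mice of a strain, Chat ran from 271 CPM in A/J to 446 CPM in WSB/EiJ, from 34 counts in 9 nuclei, with 286 CPM from 23 counts in CAST/EiJ and 407 CPM from 96 counts in PWK/PhJ. With so few counts no order of strains was read from these values. Slc5a7 ran from 591 CPM in A/J to 822 CPM in C57BL/6, Chrm2 from 433 CPM in NOD/ShiLtJ to 776 CPM in A/J and Ache from 64.4 CPM in NZO/HlLtJ, from 7 counts, to 233 CPM in C57BL/6.

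Chrm3 was lower in NZO/HlLtJ in both kinds of projection neuron, though from few counts in Drd1+ neurons. In Drd2+ neurons, where the gene is abundant, the NZO/HlLtJ mice had 176, 161, 187 and 202 CPM, below every other mouse, of which the lowest was a NOD/ShiLtJ mouse at 204 CPM. The mean was 182 ± 17.6 CPM against 307 ± 60.2 CPM over the 28 mice of the other strains. The strain term gave F = 4.41 (edgeR, adjusted p = 0.00866), and NZO/HlLtJ was lower by a log2 difference of -0.74 ± 0.16 (adjusted p = 0.00155), where 7.72% of genes were called lower. No other strain's difference from the rest was called. The 4 indirect pathway markers Drd2, Adora2a, Penk and Gpr6 summed to 1906 CPM in NZO/HlLtJ and to 1884 ± 382 CPM over all 32 mice of this cluster.

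In Drd1+ neurons Chrm3 was 4.12, 2.67, 0.856 and 4.54 CPM in NZO/HlLtJ and 25.1, 21.4, 12.6 and 26.4 CPM in A/J. These values came from 36 counts in NZO/HlLtJ and 430 in A/J. The NZO/HlLtJ mice included the 2 lowest of all 32, while those of A/J overlapped a PWK/PhJ mouse at 26.8 CPM and others. The strain term gave F = 5.22 (edgeR, adjusted p = 0.00336). The log2 difference from the other strains was 1.51 ± 0.30 in A/J (edgeR, adjusted p = 0.00102) and -1.90 ± 0.54 in NZO/HlLtJ (adjusted p = 0.0159), where 10.6% of genes were called higher and 8.74% lower. The summed level of the 4 indirect pathway markers in these Drd1+ libraries was also highest in A/J, at 217 ± 30.8 CPM, followed by PWK/PhJ at 160 ± 27.8 CPM. In NZO/HlLtJ it was 109 ± 16.0 CPM, inside the range of the remaining strains (99.0 to 127 CPM). None of the 4 markers was at 0, and their part in the Chrm3 differences was not tested. Without batch 2 the strain call was lost in Drd1+ (adjusted p = 0.0924) and in Drd2+ neurons (adjusted p = 0.0896). In Drd1+ neurons the A/J contrast was lost without batch 2 (0.0517) and the NZO/HlLtJ contrast without batch 1 or 2 (0.0674 and 0.0818).

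**Figure D5:**
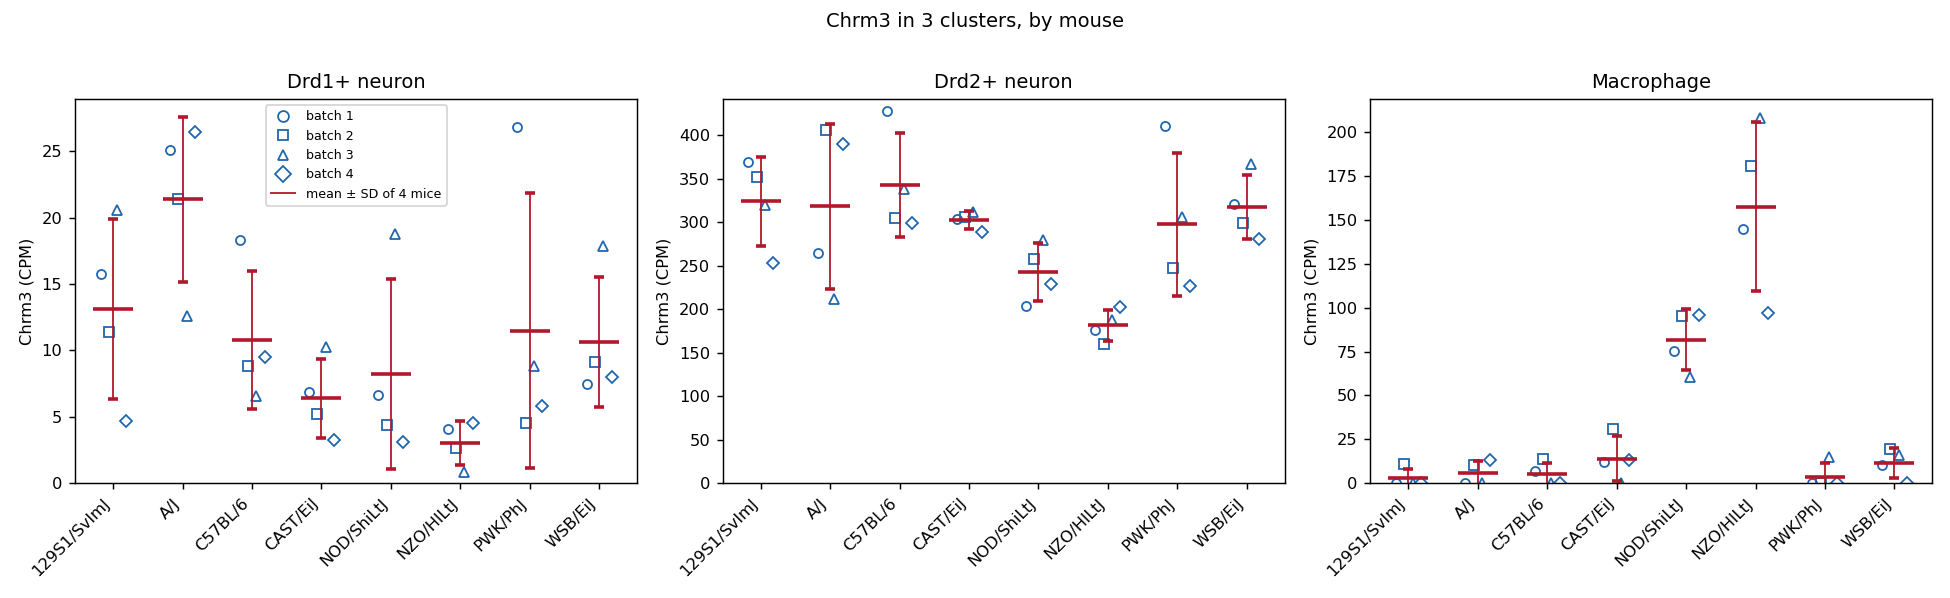
TMM-scaled CPM of Chrm3 by strain in Drd1+ neurons, Drd2+ neurons and macrophages; markers are the 4 mice of a strain and bars the mean with its SD, drawn from 0. NZO/HlLtJ is lowest in both kinds of neuron (3.04 and 182 CPM) and highest in macrophages (158 CPM).

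Macrophages, the cluster that holds the microglia-type markers Csf1r and P2ry12, showed another order of strains. Chrm3 did not pass the filter on low counts there, and the values are given because they stood out when they were seen. The NZO/HlLtJ mice had 145, 181, 208 and 96.8 CPM and the NOD/ShiLtJ mice 75.2, 95.4, 60.7 and 96.1 CPM. The 24 mice of the other 6 strains had 7.16 ± 8.48 CPM, from 0 to 31.1, and 12 of them had no count. Neither strain overlapped those mice. At least 1 UMI was found in 40 of 269 NZO/HlLtJ nuclei (14.9%) and in 29 of 341 NOD/ShiLtJ nuclei (8.50%), against 0.269% to 2.14% in the other strains. With no filter on low counts edgeR called Chrm3 for strain here, as it did 6.7% of all genes tested, and without batch 4 the gene passed the filter and was called. Of 106 counts, 52 were in NZO/HlLtJ and 37 in NOD/ShiLtJ, so the gene passed the filter through the strains where it is high. Since the gene and cluster were picked for this pattern, these calls add no support to it. The values are a description and no p is given.

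Markers of indirect pathway neurons were at like levels in these macrophage libraries. On unscaled totals, on which Chrm3 was 126 CPM in NZO/HlLtJ and 66.4 CPM in NOD/ShiLtJ, the 4 markers summed to 327 CPM in NZO/HlLtJ and 319 CPM in NOD/ShiLtJ, and to 231 to 320 CPM in the other strains. In oligodendrocytes Chrm3 was 3.42 CPM in NZO/HlLtJ and 4.54 CPM in NOD/ShiLtJ, inside the range of the strains (0.947 to 5.26 CPM), and in astrocytes 1.98 and 5.04 CPM (1.34 to 6.88 CPM). A macrophage library held 24 to 220 nuclei and 27325 to 365425 counts, so a single count weighs heavily in the smaller ones.

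Chrm4 and Ache were also called in Drd1+ neurons. Chrm4 was 4.26, 4.80, 2.05 and 5.24 CPM in A/J and 1.03, 2.22, 0.570 and 1.65 CPM in NZO/HlLtJ, and every strain overlapped another. The strain term gave F = 2.77 (edgeR, adjusted p = 0.0311). The log2 difference was 0.77 ± 0.25 in A/J (edgeR, adjusted p = 0.0282) and -1.20 ± 0.39 in NZO/HlLtJ (adjusted p = 0.0241), from 86 and 15 counts. Mdk, a growth factor gene whose 3′ end overlaps that of Chrm4, was also highest in A/J (39.5 ± 6.97 CPM) and lowest in NZO/HlLtJ (9.01 ± 2.41 CPM), and its part in the Chrm4 counts was not tested. The strain call of Chrm4 was lost with DESeq2 (adjusted p = 0.0515), without batch as a term (0.0511) and without batch 1, 2 or 4 (0.0891, 0.108 and 0.0961). The A/J contrast was lost without batch as a term (0.0523) and without batch 1, 2 or 4 (0.0531, 0.208 and 0.139), and that of NZO/HlLtJ without batch 1 or 3 (0.226 and 0.121).

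Ache in Drd1+ neurons was 10.2, 12.0, 13.1 and 14.1 CPM in 129S1/SvImJ mice, 11.2, 11.4, 14.7 and 11.1 CPM in PWK/PhJ mice and 9.80, 10.5, 15.3 and 10.98 CPM in NOD/ShiLtJ mice. It was 6.95, 7.55, 7.13 and 8.26 CPM in NZO/HlLtJ and 8.20, 9.42, 7.27 and 4.86 CPM in WSB/EiJ, below all mice of 129S1/SvImJ and PWK/PhJ. The strain term gave F = 5.19 (edgeR, adjusted p = 0.000672). Ache was higher by a log2 difference of 0.43 ± 0.13 in 129S1/SvImJ (edgeR, adjusted p = 0.0225) and 0.40 ± 0.13 in PWK/PhJ (adjusted p = 0.0180), where 7.72% and 17% of genes were called higher. The first of these calls was lost without batch 2, 3 or 4 (adjusted p = 0.0868, 0.0638 and 0.183) and the second without batch 1 or 3 (0.0548 and 0.118), and both with no filter on low counts (0.0561 and 0.0518). The long noncoding RNA gene Gm42456 overlaps the start of Ache. Its level in Drd1+ neurons was lowest in PWK/PhJ, at 19.6 CPM, and highest in C57BL/6, at 55.2 CPM, with 37.9 CPM in 129S1/SvImJ, and its part in the Ache counts was not tested. In Drd2+ neurons the strain term of Ache had an adjusted p of 0.163 (edgeR). Chrm1 had an adjusted p of 0.505 in Drd1+ and 0.531 in Drd2+ neurons (edgeR). Over the 32 mice it ran from 44.7 to 77.4 CPM in Drd1+ and from 35.9 to 74.0 CPM in Drd2+ neurons before scaling.

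Other genes of the pathway were read from lists of acetylcholine handling, nicotinic receptors and muscarinic signalling. The lists were chosen with earlier results of these data known. A count above the share of all genes is therefore not read as a result about a list. Of 14 listed genes of acetylcholine handling and cholinergic neurons, 8 of 8 tested were called in Drd1+ neurons, where 61.7% of all genes were. In Drd2+ neurons it was 6 of 6 (55.9% of all genes), in oligodendrocytes 5 of 7 (34.8%) and in astrocytes 2 of 4 (21.5%). In endothelium it was 0 of 3 (3.23%). Each of the other clusters with a tested gene gave 0 of 2, beside the background shares above. Slc17a8, the vesicular glutamate transporter gene that cholinergic interneurons co-express, had the largest F of the list in Drd1+ neurons (F = 188; edgeR, adjusted p = 2.94e-26). It was 36.4 ± 8.09 CPM in CAST/EiJ and 30.5 ± 4.04 CPM in PWK/PhJ, against 0 to 9 counts in each of the other 6 strains. In Drd2+ neurons it was 30.8 ± 4.89 and 19.8 ± 4.77 CPM in the same strains (F = 119; edgeR, adjusted p = 1.08e-23). Chat and Slc17a8 thus moved in one direction in PWK/PhJ and in opposite directions in CAST/EiJ. In oligodendrocytes the largest F was that of Colq, the collagen tail that anchors Ache, highest in PWK/PhJ at 78.7 CPM and lowest in C57BL/6 at 0.284 CPM (edgeR, adjusted p = 9.61e-29). In astrocytes it was that of the choline transporter gene Slc44a1, highest in PWK/PhJ at 166 CPM and lowest in A/J at 68.1 CPM (edgeR, adjusted p = 4.94e-05).

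Among 9 listed nicotinic receptor genes, Chrna7 was called in Drd1+ neurons (123 CPM in CAST/EiJ, 63.6 CPM in NZO/HlLtJ; edgeR, adjusted p = 2.94e-07), 1 of 2 tested. In Drd2+ neurons 2 of 3 were called, Chrna7 (126 and 66.0 CPM in the same strains; edgeR, adjusted p = 1.13e-05) and Chrna4 (6.59 CPM in A/J and 0.748 CPM in PWK/PhJ; adjusted p = 5.38e-07), and in Drd1+ neuron_2 0 of 1. The shares of all genes called were 61.7% in Drd1+ neurons, 55.9% in Drd2+ neurons and 17.3% in Drd1+ neuron_2. Of 14 listed genes of muscarinic signalling, 12 of 14 tested were called in Drd1+ neurons, 10 of 14 in Drd2+ neurons, 4 of 11 in Drd1+ neuron_2, 4 of 13 in oligodendrocytes and 4 of 14 in astrocytes. Beside the shares of all genes called in oligodendrocytes (34.8%), astrocytes (21.5%) and macrophages (24.8%), the counts there are near or below the background. Kcnq5, a subunit of the M-current channel that muscarinic receptors close, had the largest F in Drd1+ neurons, at 7695 CPM in NZO/HlLtJ and 3684 CPM in A/J (F = 94.8; edgeR, adjusted p = 4.74e-22). NZO/HlLtJ was also its highest strain in Drd2+ neurons (7181 CPM, with WSB/EiJ lowest at 3079 CPM; edgeR, adjusted p = 3.43e-23) and in Drd1+ neuron_2 (6286 and 2411 CPM in the same strains; adjusted p = 6.08e-20). In Drd1+ and Drd2+ neurons NZO/HlLtJ was thus highest for Kcnq5 and lowest for Chrm3. In Drd1+ neuron_2, where Chrm3 was not called, its lowest mean was that of C57BL/6 (88.8 CPM, with 107 CPM in NZO/HlLtJ). In endothelium Chrm3 was not called either, and its lowest mean was that of NZO/HlLtJ (21.7 CPM). A link between Kcnq5 and Chrm3 was not tested. In astrocytes the largest F was that of Kcnj3, a subunit of the potassium channel that Gi-coupled receptors open, at 127 CPM in NOD/ShiLtJ and 6.84 CPM in PWK/PhJ (edgeR, adjusted p = 3.29e-17). In oligodendrocytes it was that of the G protein gene Gnai1, highest in 129S1/SvImJ at 408 CPM and lowest in CAST/EiJ at 132 CPM (edgeR, adjusted p = 1.98e-06). In macrophages 1 of 6 was called, the G protein gene Gnao1, at 165 CPM in CAST/EiJ and 69.4 CPM in PWK/PhJ (edgeR, adjusted p = 0.0162). In endothelium, where 3.23% of all genes were called, 1 of 12 was, Kcnq5 (4215 CPM in NZO/HlLtJ and 737 CPM in CAST/EiJ, edgeR adjusted p = 0.00149). In the polydendrocyte cluster, where 1.24% of all genes were called, 1 of 7 was, the phospholipase gene Plcb1. It was 3492 CPM in WSB/EiJ and 936 CPM in PWK/PhJ (edgeR, adjusted p = 0.0398). In Nxph1+ interneurons, where 1.53% of all genes were called, 0 of 10 were.

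Genes with the most similar pattern over the 18 clusters were found by Pearson's r of log2(CPM + 1), among 15711 genes, as a description of 18 points that share libraries and depth. For Slc18a3 they included Insrr (0.976) and 1110002E22Rik (0.921), and for Slc5a7 Gm5868 (0.9503), Mtnr1a (0.917) and Gm29374 (0.912). Those of Chat were Bves (0.890), Mtnr1a (0.888) and Lnp1 (0.885), so Chat and Slc5a7 had the melatonin receptor gene Mtnr1a in common. For Ache they were Impact (0.919), Ankrd55 (0.863) and Resp18 (0.860). Among the receptors, Chrm2 was most like 9330158H04Rik (0.942), the noncoding gene at its own start, then Rtbdn (0.931) and Iqsec3 (0.925). Chrm1 was most like Arpp21 (0.932), 8030462N17Rik (0.902) and Sema3e (0.882), and Chrm3 like Gm47405 (0.897), Mal2 (0.844) and Ryr2 (0.836). With a pseudocount of 5 in place of 1, 1 of the 3 genes stayed for Chrm3, 2 for each of Chrm1, Chrm2, Chat and Ache, and all 3 for Slc5a7 and Slc18a3; for Ache the first place then went to Rtbdn. Chrm4 and Chrm5 were under 10 CPM in every cluster and were not compared.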

How the data were processed

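Counts and barcodes. The deposited matrices hold raw counts of UMIs per gene and barcode. The submitters' processing notes name bcl2fastq 2.20.0.422, Cell Ranger ARC 2.0.0 and the builds mm10 and GRCm38, without their roles; whether counting used strand is not given in the sources used here. The authors' deposited per-barcode table (other values: categories) gives, per the file headers, Demuxlet strain calls, a quality filter, DoubletFinder calls, removals and cluster names, which were used unchanged. Of 89339 barcodes, 65804 singlets got 1 and the same strain call from RNA and from chromatin, 65394 passed the quality filter, 6719 of these were called doublets and 3003 more were removed. The deposited list of accessible regions (other values: positions) served only for overlaps with genes and promoters. The table writes C57BL_6NJ where the design text writes C57BL/6J, so the strain is called C57BL/6 here; NZO/HlLtJ is spelled as in the table.

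Counts were summed per mouse and cluster. A library needed 10 nuclei, and a cluster was tested with at least 3 mice of every strain. Genes were filtered with filterByExpr, scaled by TMM and fitted with strain and batch by robust quasi-likelihood in edgeR 4.0.16 (R 4.3.3). A strain's contrast set it against the average of the remaining 7 on the log2 scale. Drd1+ libraries held 1710451 to 9416806 counts and Drd2+ libraries 1251786 to 6803437. Cluster levels are CPM of a batch's summed counts; strain levels of the members and pathway genes in tested clusters are CPM over TMM-scaled totals, and those of markers, overlapping genes and Chat+ interneurons CPM over unscaled totals. Counts of Chat+ interneurons were not fitted, since not every strain had 2 mice with at least 5 nuclei. Same-numbered mice are paired by design: each batch is 1 pool holding 1 mouse of every strain. The fit was tested on simulated data. Alternatives were DESeq2 1.42.0, RLE scaling, no filter, no batch term, libraries of at least 20 nuclei, thinned libraries, leaving out each batch and, for similar patterns, a pseudocount of 5. The members and lists were chosen with earlier results of these data known. Genes to name were the 9 members, the gene of largest F in each list and cluster among those called, and the 3 genes most similar to each member. Some listed genes are not reported here.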

Additional observations from a re-analysis of the deposited data

Results flagged for a closer look

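Of 109 groups of 4 mice of a strain (gene and cluster), 5 held a mouse far from the other 3 of its strain, a rate that chance gives too, since such a gap occurs in about 1 in 20 groups. None of the 35 groups of 4 batches held such a value. Chrm1 in Drd1+ neurons was 77.8 CPM in the C57BL/6 mouse of batch 4 and 53.7 to 56.2 CPM in the other C57BL/6 mice. Chrm3 in Drd1+ neurons was 17.9 CPM in the WSB/EiJ mouse of batch 3 and 7.50 to 9.10 CPM in the others. Ache in Drd1+ neurons was 14.7 CPM in the PWK/PhJ mouse of batch 3 and 11.1 to 11.4 CPM in the others. Ache in Drd2+ neurons was 7.15 CPM in the CAST/EiJ mouse of batch 3 (8.65 to 8.94 CPM in the others) and 17.2 CPM in the NOD/ShiLtJ mouse of batch 3 (9.81 to 10.4 CPM in the others). Batch 3, which holds 4 of these 5 mice, had the lowest median depth, 3232 UMIs per nucleus, and its part in these values was not tested.

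For Chat, the strain effect differed between Drd1+ and Drd2+ neurons by the test of the interaction itself (edgeR, adjusted p = 0.00249). The call was lost without the mouse as a block, without batch 1 and without batch 3.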

How the results depend on the processing

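Of 14 pairs of gene and cluster tested, 6 were called for strain. With the batch as replicate block left out the count was 5, with DESeq2 5, and with RLE scaling or no filter 6. Thinned libraries gave 5 of 12 pairs with a value, Chrm4 in Drd1+ neurons having none. Libraries of at least 20 nuclei gave 6 of 13, but all 6 calls were in Drd1+ and Drd2+ neurons. Libraries there held at least 283 and 262 nuclei, so this setting left their fits unchanged and could not test these calls. Leaving out each batch in turn gave 3 to 6, the lowest without batch 2, where the calls of Chrm3 in Drd1+ and Drd2+ neurons and of Chrm4 in Drd1+ neurons were lost. Chat was called in Drd1+ and Drd2+ neurons under every setting run (highest adjusted p = 6.75e-06 and 1.24e-06, edgeR or DESeq2), and Ache in Drd1+ neurons too (0.000612 to 0.029). Chrm4 in Drd1+ neurons was the least stable: its adjusted p was 0.0511 without the replicate block, 0.0515 with DESeq2 and 0.0891, 0.108 and 0.0961 without batches 1, 2 and 4. Without batch 4 Chrm3 was called in Drd1+ neuron_2 (edgeR, adjusted p = 0.00157), and with no filter Chrm2 was called in Drd2+ neurons (0.00235). Chrm3 in macrophages, a pair picked for its pattern, was called in both of these settings, which adds no support to that pattern. Strain contrasts were counted only for the 6 pairs already called for strain on the same data. Their number is therefore not a rate for the members. Of these 48 contrasts 17 were called, 16 without the replicate block, 17 with RLE and 21 with no filter. When 1 batch was left out, 8 to 15 were called. In all 8 settings 6 were called: Chat in CAST/EiJ and PWK/PhJ in both neuron types, Chat in NOD/ShiLtJ and Chrm3 in NZO/HlLtJ in Drd2+ neurons. The interaction called 1 gene, Chat. Without the replicate block, which is the mouse in this fit, it called 0 (Chat adjusted p = 0.160) and 69 in place of 631 of all genes, and without single batches 0 to 1. None of the 17 called contrasts changed direction in the settings where contrasts were run. They were not run with DESeq2, thinned libraries or libraries of at least 20 nuclei, and direction was not compared for other results. The cause of the changes between settings was not tested.

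Counts over all genes moved by more than 1.5 times mainly with thinning: from 3161 to 1252 in oligodendrocytes, 1767 to 183 in astrocytes, 957 to 239 in macrophages, 958 to 516 in Drd1+ neuron_2, 161 to 71 in endothelium, 61 to 7 in Nxph1+ interneurons and 26 to 3 in the polydendrocyte cluster. With no filter 527, 468 and 221 genes were called in the last 3 of these, and with DESeq2 109 in Nxph1+ interneurons and 75 in the polydendrocyte cluster. Without the replicate block 71 were called in endothelium. Leaving out a batch gave as few as 1138 in astrocytes, 628 in Drd1+ neuron_2, 63 in endothelium, 24 in Nxph1+ interneurons and 6 in the polydendrocyte cluster, and as many as 58 in the last. Averaging each nucleus's own CPM moved 5 of 35 cluster levels by over 1 SD, among them Chrm3 in Drd1+ neuron_2 to 188 CPM. Endothelium and the polydendrocyte cluster had too few libraries of 20 nuclei, and alternatives of the strain test in Chat+ interneurons were not run, since it was not fitted. Shares of nuclei moved with the depth they were thinned to. Depth limits Chrm4, Chrm5, Slc5a7 and Slc18a3 most.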
